A study of Danio rerio with 3 samples.

Results

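Heat shock proteins of the Hsp70 family bind exposed hydrophobic stretches of client proteins and release them in cycles of ATP hydrolysis, and DnaJ proteins (Hsp40 proteins) deliver clients and start that hydrolysis. Hsp90 proteins act later on maturing clients such as kinases and hormone receptors, small heat shock proteins hold unfolding proteins without ATP, and the mitochondrial chaperonin encloses proteins to fold them. Some of these genes are transcribed in all growing cells, and others are switched on by heat shock factor when proteins unfold. A rise of the second kind over an unstressed control is widely read as a sign of stress in a tissue or in a cell preparation. No such control is read here, so stress was not tested.

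The genes described here are those whose symbol starts with hsp followed by a digit or by a, b, d or e, or with dnajb followed by a digit. The rule finds 42 members among the 14581 gene symbols of the library with values used here. They comprise 28 hsp and 14 dnajb symbols, all listed with a value above 0. The gene column of the other table of the series lists 44 such symbols, of which 41 are shared. Its additional ones were hsp70.2, hsp70.3 and hspb12, and hsp70 was found in the first table only. The series profiled RNA from cells sorted at 72 hours after fertilization from whole, untreated zebrafish embryos of a wild-type background grown at 28 °C. It has 3 libraries, 1 per population: double positive cells (kdrl:mCherry+;sele:GFP+), kdrl:GFP positive cells and kdrl:GFP negative cells. The reporters are named for kdrl, an endothelial Vegf receptor gene, and sele, the E-selectin gene. The embryos came from incrosses of transgenic stocks, between 10000 and 300000 cells were collected per population, and the number of embryos is not given in the labels.

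Values are given for the double positive cells only. The 2 value columns of the table that holds the kdrl:GFP libraries carry numbered codes that no label ties to the positive or to the negative cells, so their values were not used, and whether levels were shared by the sorted populations was not examined. With 1 library and no replicate, values have no error between samples, and no test was run. The depth is unknown, since the table gives FPKM (fragments assigned to a gene, scaled to its transcript length and to the size of the library) and no counts. High and low refer to other genes of this library. All cells were homogenized, filtered and sorted before RNA extraction, and levels in the intact embryo cannot be told apart from changes during that preparation. In this bulk sample, fewer cells of a type and less RNA per cell cannot be told apart.

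Endothelial markers were abundant, as were single genes known from other tissues. All 17 of the 21 listed endothelial markers that were found stood between 89.1 and 843 FPKM, kdrl at 428 and sele at 415 FPKM. Markers of erythroid, myeloid, muscle, nerve, epidermal and lens cells had a joint median of 8.95 FPKM over 37 symbols. Of these, 23 lay above the median of all symbols, 5.98 FPKM. At least 10 FPKM was reached by 17 (45.9%), against 40.0% of all symbols. At least 100 FPKM was reached by 3 (8.11%), against 5.51%: krt8 at 1494 FPKM and the globin genes hbae3 and hbae1 at 252 and 200.01 FPKM. List medians were 28.8 FPKM for epidermal, 19.3 for erythroid and 15.4 for muscle markers. They were 10.6 FPKM for myeloid, 6.41 for nerve and 0.835 for lens markers. Outside these lists, and named after its value was seen, col2a1a, a collagen gene of notochord and cartilage, stood at 1817 FPKM, rank 25, above every endothelial marker of the list. The part of such cells in the chaperone levels was not tested.

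As a group, the heat shock and DnaJb genes stood far up in the library. Their median was 45.0 FPKM, against 5.98 FPKM over all symbols, and their median rank percentile was 86.9. Of the 42 members, 36 lay above the library median. At least 10 FPKM was reached by 32 members (76.2%), against 40.0% of all symbols, and at least 100 FPKM by 13 members (31.0%), against 5.51% of all symbols. At least 1 FPKM was reached by 40 members (95.2%), against 73.3% of all symbols. A list of 13 housekeeping genes read in the same way had a median of 41.0 FPKM, with 6 at or above 100 FPKM. These 6 include the polyubiquitin genes ubb and ubc, at 3157 and 755 FPKM. The members nearest to the level of 100 FPKM were hspa12b at 131 FPKM above it and hspb8 at 89.8 FPKM below it. The 42 members together held 1.85% of the summed FPKM of the library, and dnajb1b alone held 0.606%.

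**Figure D1:**
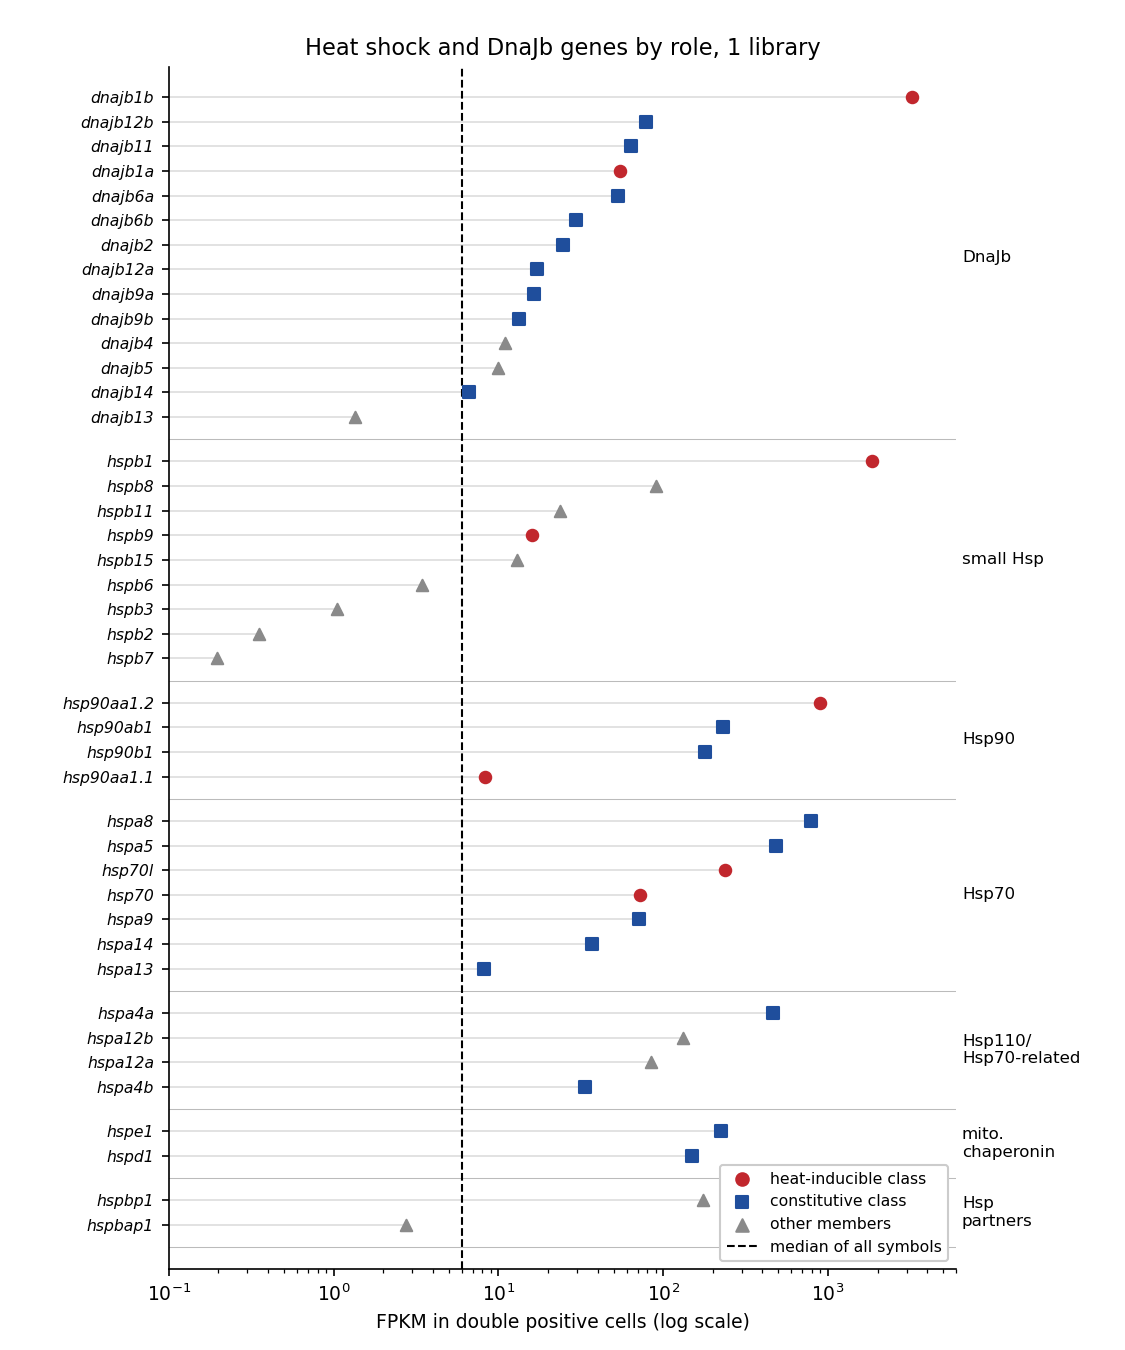
FPKM of each of the 42 members in the double positive library on a log axis, grouped by role, with the class given by colour and marker shape. The dashed line marks the median of all symbols, 5.98 FPKM; dnajb1b (3241 FPKM) and hspb1 (1841 FPKM) stand apart within their own roles, while hspb2 and hspb7 lie below 1 FPKM.

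The DnaJb genes, which encode the J-domain partners of Hsp70, were led by a single gene. dnajb1b, an ortholog of the mammalian heat-inducible DNAJB1, stood at 3241 FPKM and rank 5, with only rn7sk, rps2, rpph1 and rps20 above it. These are 2 ribosomal protein genes and the genes of 2 abundant noncoding RNAs. The next DnaJb gene was dnajb12b, whose mammalian relative sits in the membrane of the endoplasmic reticulum (ER), at 79.0 FPKM. The level of dnajb1b was thus 41.0-fold that of the second. It was also 4.09-fold the level of hspa8, the most abundant Hsp70 gene.

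The remaining DnaJb genes spread over lower levels. dnajb11, a cofactor of the ER Hsp70, stood at 64.1 FPKM, and dnajb1a, the paralog of dnajb1b, at 55.0 FPKM. dnajb6a and dnajb6b, whose mammalian relative suppresses protein aggregation, stood at 53.1 and 29.7 FPKM. dnajb2 stood at 24.7 FPKM, and dnajb12a at 17.1 FPKM. The ER genes dnajb9a, dnajb9b and dnajb14 stood at 16.3, 13.4 and 6.60 FPKM, and dnajb4 and dnajb5 at 10.9 and 9.88 FPKM. The lowest was dnajb13, whose mammalian relative belongs to cilia and sperm flagella, at 1.35 FPKM, the only DnaJb gene below the median of all symbols. The median of the 14 DnaJb genes was 20.9 FPKM, at a median rank percentile of 74.6, and dnajb1b was the only one at or above 100 FPKM.

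The small heat shock genes were also led by 1 gene, and 5 of the 9 lay above the median of all symbols. hspb1, which encodes Hsp27, reached 1841 FPKM and rank 24. It was followed by hspb8, which works with Bag3 in mammals, at 89.8 FPKM, so that hspb1 was 20.5-fold higher. The symbol hspb11 of this table stood at 23.7 FPKM. It is now named hspb9l, and should not be taken for the gene that carries the name hspb11 today. hspb9 stood at 16.0 FPKM and hspb15 at 13.0 FPKM. The genes hspb6, hspb3, hspb2 and hspb7, known from heart and skeletal muscle in mammals, stood at 3.43, 1.05, 0.355 and 0.195 FPKM. All 4 lay below the median of all symbols, whereas 5 of the 7 listed muscle markers lay above it, pvalb1 highest at 61.6 FPKM. The median of the 9 small heat shock genes was 13.0 FPKM.

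Among the Hsp70 genes 2 constitutive members were highest. hspa8, the cytosolic housekeeping Hsp70, stood at 792 FPKM, rank 81, and hspa5, the ER Hsp70 known as BiP, at 486 FPKM, rank 141. The heat-inducible hsp70l stood at 237 FPKM and hsp70 at 72.1 FPKM. The level of hspa8 was 3.34-fold that of hsp70l and 10.99-fold that of hsp70. hspa9, the mitochondrial Hsp70, stood at 71.3 FPKM, close to hsp70. hspa14, whose human relative binds ribosomes, stood at 36.9 FPKM and the ER-associated hspa13 at 8.13 FPKM. The symbol hsp70 is a synonym of both hsp70.1 and hsp70.3 in the current gene table, and reads of hsp70 and hsp70l can be exchanged between such similar copies, so their separate values are uncertain. The symbol hsc70, which the rule does not take and which is also a synonym of hspa8, was listed at 0.0987 FPKM.

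The Hsp110 genes encode large Hsp70 relatives that exchange the nucleotide on Hsp70. Of these, hspa4a stood at 465 FPKM, rank 151, and hspa4b at 33.6 FPKM. The distant relative hspa12b, known from endothelial cells in mammals and fish, stood at 131 FPKM, and hspa12a at 84.1 FPKM. hspbp1, which encodes an exchange factor and inhibitor of Hsp70 in mammals, stood at 173 FPKM. hspbap1, named for a protein that binds Hsp27, stood at 2.74 FPKM.

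Of the 4 Hsp90 genes, 3 exceeded 100 FPKM. hsp90aa1.2, counted here with the heat-inducible genes, stood at 888 FPKM, rank 71. The constitutive cytosolic hsp90ab1 stood at 232 FPKM, so that hsp90aa1.2 was 3.83-fold higher. hsp90b1, the ER Hsp90 known as Grp94, stood at 179 FPKM. hsp90aa1.1, which zebrafish muscle needs to assemble its myofibrils, stood at 8.24 FPKM, rank 6393, still above the median of all symbols. The level of hsp70l was 1.02-fold that of hsp90ab1, and the cytosolic and ER constitutive Hsp90 genes differed by 1.30-fold.

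The 3 members of the mitochondrial matrix stood between 71.3 and 223 FPKM. The chaperonin genes hspe1 (Hsp10) and hspd1 (Hsp60) stood at 223 and 150.2 FPKM, and the partner Hsp70 gene hspa9 at 71.3 FPKM. The ER members reached over a wider range. Of these 9 genes, hspa5 and hsp90b1 exceeded 100 FPKM, and the 9 had a median of 17.1 FPKM. hspa5 was 2.72-fold hsp90b1 and 7.59-fold its cofactor gene dnajb11.

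**Figure D2:**
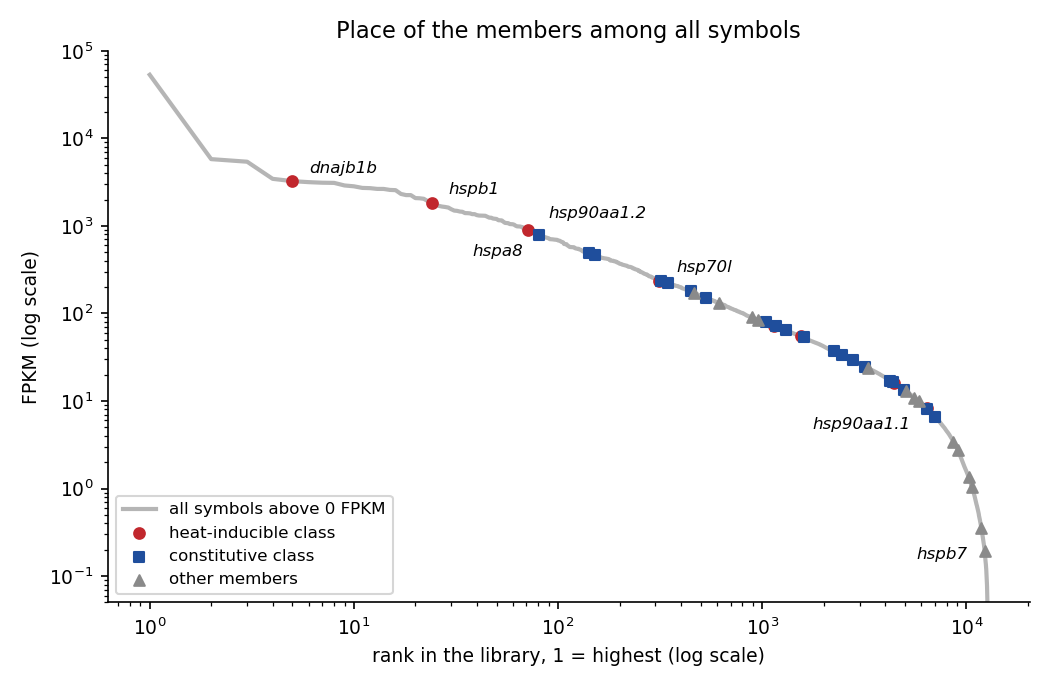
FPKM against rank for all symbols above 0 FPKM in the double positive library, both axes on a log scale, with the 42 members marked by class. dnajb1b, hspb1, hsp90aa1.2 and hspa8 lie within the 100 highest symbols, and hspb7 lies at rank 12278.

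Heat-inducible and constitutive genes were then set against each other. The inducible class holds 8 members (dnajb1b, hspb1, hsp90aa1.2, hsp70l, hsp70, dnajb1a, hspb9 and hsp90aa1.1) and the constitutive class 20, with 14 members in neither. The classes refer to heat only. The constitutive class includes hspa5, hsp90b1, dnajb9a, dnajb9b and dnajb11, taken below as ER stress genes, so it is not free of stress genes. The inducible genes had a median of 155 FPKM, at a median rank percentile of 95.0, and the constitutive genes a median of 58.6 FPKM, at 90.1. On the log2(FPKM + 1) scale the medians were 7.04 for the inducible and 5.89 for the constitutive class, a difference of 1.15. The 7.04 corresponds to 131 FPKM rather than 155 FPKM, because the middle genes hsp70l and hsp70 were averaged on the log2 scale. At least 100 FPKM was reached by 4 of 8 inducible and by 7 of 20 constitutive genes, against 5.51% of all symbols.

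The ranges of the classes overlapped. Inducible genes ran between 8.24 and 3241 FPKM and constitutive genes between 6.60 and 792 FPKM. The 3 highest members of all 42 were the inducible dnajb1b, hspb1 and hsp90aa1.2, followed by the constitutive hspa8, hspa5 and hspa4a. By summed FPKM the inducible class held 64.3% of the members' total and the constitutive class 30.2%. dnajb1b contributed 32.8% of that total and hspb1 18.6%.

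The order of the class medians was not general. Without dnajb1b the difference was 0.30 on the log2(FPKM + 1) scale, in place of 1.15. This value is not particular to dnajb1b. Leaving out any 1 of the 4 inducible genes at or above 100 FPKM makes hsp70, at 72.1 FPKM, the class median. Leaving out any 1 of the lower inducible genes makes it hsp70l, at 237 FPKM, which widens the difference. Among Hsp70 and Hsp90 genes alone it was -0.45, with the median of the 4 inducible genes below that of the 7 constitutive ones. That sign rests on single genes as well. Without hsp70 or without hsp90aa1.1, the inducible median there would be hsp70l at 237 FPKM, above the constitutive median, hsp90b1 at 179 FPKM. With hsp70 and hsp70l summed and the hsp90aa1 genes summed, the difference between the classes was 3.15. All of these genes are inducible and no constitutive pair was summed, so this step changed the inducible class alone. The class medians therefore depended on which genes were counted.

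Paralogs and functional pairs differed widely in how evenly they were expressed. Of 9 pairs, 5 differed by at least 2-fold. No share among other gene pairs of the library was computed, so this count cannot be called particular to the family. The gene with the higher level is named first here, an order chosen after the values were seen. hsp90aa1.2 was 107.8-fold hsp90aa1.1, although these genes lie next to each other in the current assembly. dnajb1b was 58.9-fold dnajb1a, and hspa4a 13.8-fold hspa4b. dnajb12b was 4.62-fold dnajb12a, and hsp70l 3.29-fold hsp70.

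The other 4 pairs lay closer together. dnajb6a was 1.79-fold dnajb6b, hspa12b 1.56-fold hspa12a and dnajb9a 1.22-fold dnajb9b. hspe1 and hspd1, which encode the partner subunits of the mitochondrial chaperonin and are also neighbours in the genome, differed by 1.48-fold. Without replicates it cannot be said which of these folds exceed the error of an FPKM estimate.

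**Figure D3:**
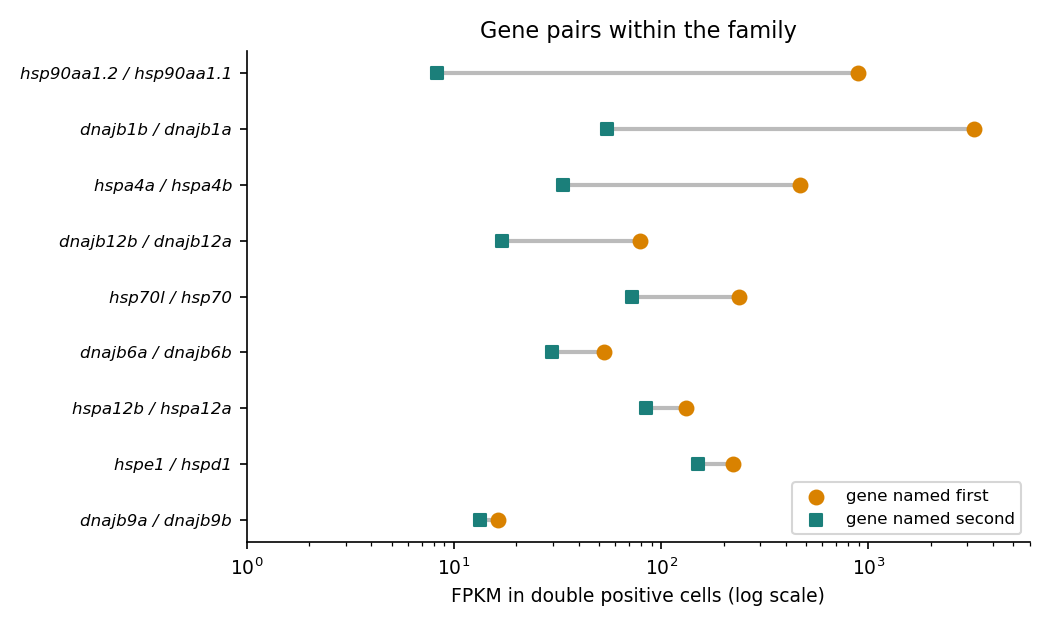
FPKM of both genes of 9 pairs in the double positive library on a log axis, ordered by their ratio. The hsp90aa1 genes lie farthest apart (888 and 8.24 FPKM) and the dnajb9 genes closest (16.3 and 13.4 FPKM).

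Genes that work with these chaperones, or belong to related folding and stress responses, were read from 7 lists, 1 of them alpha crystallins and serpinh1. Of 135 entries, 95 were found. Their joint median was 20.9 FPKM, with 65 (68.4%) at or above 10 FPKM and 23 (24.2%) at or above 100 FPKM, against 40.0% and 5.51% of all symbols. Highest of these was serpinh1b, which encodes the collagen chaperone Hsp47, at 799 FPKM. The Hsp70 and Hsp90 adaptor gene stip1 followed at 426 FPKM, the chaperonin subunit gene cct7 at 406 FPKM and serpinh1a at 348 FPKM. Next came tcp1 at 303 FPKM and atf4b2 at 282 FPKM, from the chaperonin and ER stress lists. The cytosolic chaperonin and prefoldin genes had the highest list median, 128 FPKM, and all 13 lay above the library median. Genes of the ER stress response followed at 48.7 FPKM over 17 genes.

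Co-chaperone lists had lower medians. The 12 Hsp70 co-chaperone genes had a median of 21.6 FPKM and the 15 Hsp90 co-chaperone genes one of 21.2 FPKM. The 27 DnaJa and DnaJc genes had a median of 8.96 FPKM, against 20.9 FPKM for the DnaJb genes, with dnaja2 at 133 and dnaja1 at 118 FPKM highest. Some further genes are named after their values were seen. The Hsp70 exchange factor gene bag3, a heat shock factor target in mammals, stood at 194 FPKM. The heat shock factor genes hsf1 and hsf2 stood at 26.3 and 17.5 FPKM, and hsf4 and hsf5 were listed at 0. The polyubiquitin gene ubb stood next to dnajb1b at 3157 FPKM, rank 6. The immediate early genes jun and fos stood at 2573 and 2315 FPKM, ranks 15 and 17, between dnajb1b and hspb1.

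**Figure D4:**
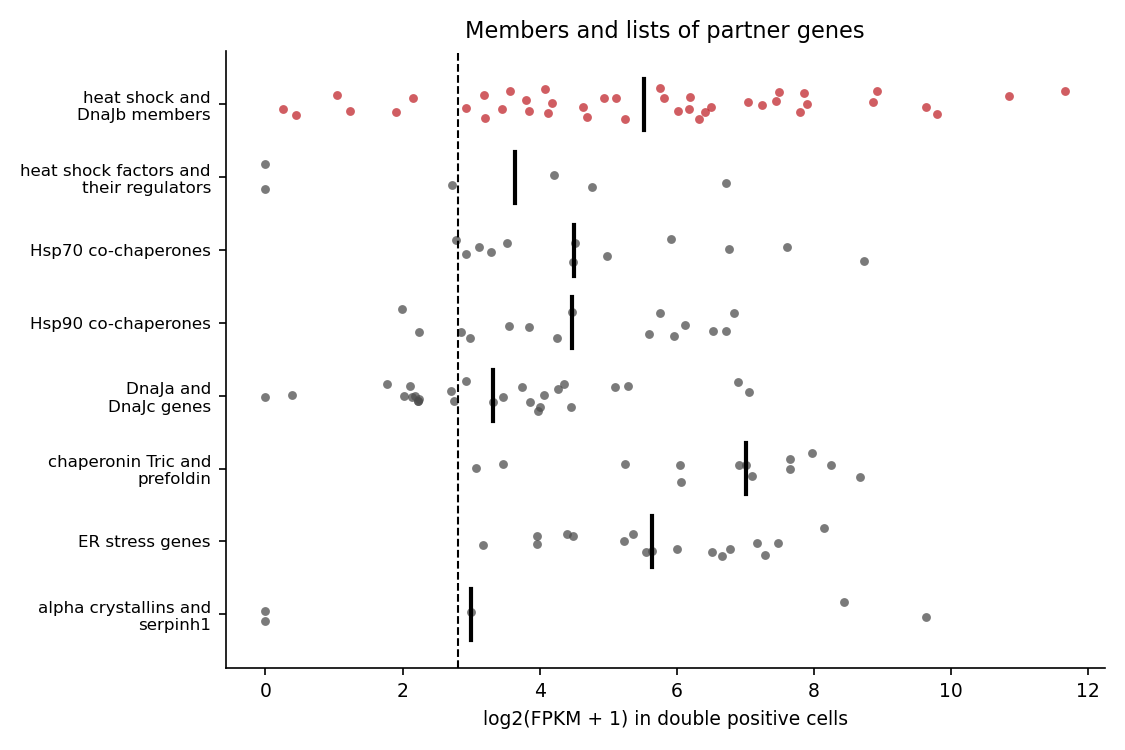
log2(FPKM + 1) of each gene in the double positive library for the 42 members (top row) and 7 lists of partner and related genes. Points are spread vertically for legibility, bars mark medians and the dashed line the median of all symbols. The members reach the highest values of all rows, and the chaperonin and prefoldin list has the highest median (128 FPKM).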

How the data were processed

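Per the labels' protocols, total RNA was extracted with a carrier, ribosomal RNA was removed, and low-input libraries from 50 ng of RNA were sequenced on an Illumina Hiseq machine. The submitters' processing notes name cutadapt, TopHat2 2.0.11, Cufflinks 2.2.1 and the Zv9 (danRer7) build. Not given in the sources used here: annotation, filters and how reads with several places were treated. The authors deposited 1 FPKM value per gene symbol for the double positive cells. FPKM divides fragments among transcripts by estimation, so values of similar copies are uncertain.

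Symbols were matched exactly. Ranks used all symbols, with ties at their mean rank, and class medians used log2(FPKM + 1). No filter was applied. The ranking and the class difference were checked on 20 simulated tables. In each table all inducible members shared the same value and all other members another, so spread within a class was not covered. Python 3.11.15, pandas 2.3.3 and NumPy 2.4.6 were used. Members, classes, partner lists and markers were chosen with earlier results of these data known. Heat-inducible and constitutive classes come from general knowledge of these genes, and hspb11 was moved to the small heat shock genes after its synonyms were looked up. Gene neighbours and synonyms come from GRCz12tu, which is not the build of the data, so no coordinates are given. The 2 value columns of the kdrl:GFP libraries were not used. Named in full were the inducible members, the 3 highest per role, kdrl, sele and the 4 highest partners, and every other member is named with its level.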

Additional observations from a re-analysis of the deposited data

How the results depend on the processing

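The members' median rank percentile was 86.9 over all symbols. It was 84.9 among genes above 0 FPKM, 85.3 among genes of at least 1 FPKM, 89.1 without hspbp1, hspbap1 and hspb11, and 84.6 for symbols found in both tables. After the data were seen, 2 more alternatives were added. The percentile was 83.2 with 5 symbols matched as synonyms, serpinh1b among them. In a library without microRNA and ribosomal protein genes and rn7sk it was 87.1. The count of members at or above 100 FPKM was 12 to 14 in all of these. The difference between inducible and constitutive medians, 1.15, was 1.16 with a pseudocount of 0.1 and 1.06 with 10. It was 1.42 with means in place of medians and 2.02 with hspd1 and hspe1 counted as inducible. With hsp70 and hsp70l summed and the hsp90aa1 genes summed it was 3.15. Only inducible genes were summed there, which takes low values out of that class alone, so the rise follows from the step. A filter at 1 FPKM removes no gene of either class and so tests nothing here. In alternatives added after seeing the data the difference was 1.29 without hspa5, hsp90b1, dnajb9a, dnajb9b and dnajb11, the members taken as ER stress genes. These are all constitutive, so this step changed that class alone. The difference was 0.30 without dnajb1b and -0.45 among Hsp70 and Hsp90 genes alone, where its direction was reversed. The last 2 follow from the genes left out, and 0.30 would follow for any 1 of the 4 inducible genes at or above 100 FPKM. The -0.45 would turn positive without hsp70 or without hsp90aa1.1. No paired analysis was possible because each group has 1 library, and leaving out a replicate could not be done. The kdrl:GFP positive library was compared neither with the negative nor with the double positive library, and settings foreseen for this were not run, since no label ties a column to a population. The unknown depth limits what can be said of the members below 1 FPKM, hspb2 and hspb7.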

Other observations

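Beyond the symbols the rule takes, 4 more genes with heat shock names are listed under provisional symbols that match a current name as a synonym. Near the library median of 5.98 FPKM stood hspa1b, an inducible Hsp70 by its human namesake, at 6.06 FPKM and the present-day hspb11 at 8.21 FPKM. Below it, hspa8b stood at 1.58 FPKM and hspa12a.3 was listed at 0. The alpha crystallin genes cryaba and cryabb, which encode further small heat shock proteins, were also listed at 0, and the lens gene cryaa stood at 7.02 FPKM. The 4 genes under provisional symbols are in neither class, and the class difference was not computed with them. Counting hspa1b as inducible would lower that class median, since it lies below the lowest inducible member, hsp90aa1.1 at 8.24 FPKM. hspa8b likewise lies below the lowest constitutive member, dnajb14 at 6.60 FPKM.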
